A study of Mus musculus with 20 samples.

Results

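Complex I (NADH:ubiquinone oxidoreductase) is the largest enzyme of the mitochondrial respiratory chain, and its nuclear-encoded subunits and several of the factors that assemble it carry gene names starting with Nduf. All 42 genes with such a name on the array are described here, out of 15233 gene names with a tested probe. They are 38 genes named as subunits (Ndufa, Ndufab, Ndufb, Ndufc, Ndufs and Ndufv) and 4 assembly factors (Ndufaf1 to Ndufaf4). The 38 include Ndufa4, since assigned to cytochrome c oxidase, and its paralogue Ndufa4l2, and the counts and means of 38 subunits below hold both. With both left out, 36 genes named as subunits remain, and 0 Nduf genes passed an adjusted p of 0.05. They were chosen by name, with earlier results of these data known. Probes were kept if the scanner software marked their Cy5 (sample) signal as clear of background on at least 10 of 20 arrays. This rule kept 55 of their 57 probes and at least 1 probe for each of the 42 genes. A probe of Ndufb5 lay just inside the limit, on 10 arrays, and a probe of Ndufa3, on 8, and a further one of Ndufb5, on 7, lay just outside. In quadriceps muscle of young male mice, no Nduf gene differed between offspring of dams fed a high-fat diet and offspring of dams fed a low-fat diet past an adjusted p of 0.05, and, with each gene read by its brightest tested probe, every 95% interval of a difference lay between -0.38 and 0.38 on the log2 scale, that is within 1.30-fold.

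The quadriceps (labelled M. quadriceps) came from male C57BL/6J mice 6 weeks old, all of which ate low-fat chow of the study's semisynthetic kind after weaning, lived in single cages and had fasted for 2 h. The 10 mHFD mice had mothers whose diet held 40% of its energy as fat and 37% as carbohydrate, and the 10 mLFD mice had mothers on 10% fat and 67% carbohydrate, with 23% protein in both; these diets ran from 3 days before mating to the end of lactation. For both groups the age of the dams is given as 8 weeks and the litter size as 5 to 7 pups. Siblings, up to 4 per group, may be among the mice, and litters are not labelled, so p-values measure the spread between mice that are not all independent. RNA of each mouse (Cy5) was hybridised beside an equimolar pool of the samples (Cy3) on an array of 60-base probes, so each value is a log2 ratio of sample over pool, positive where the sample held more of the transcript.

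Complex I oxidises NADH in the mitochondrial matrix, passes the electrons along a chain of iron-sulphur clusters to ubiquinone, and pumps protons across the inner membrane. Its peripheral arm, in the matrix, carries the redox centres, and its membrane arm carries the pumps, several of which are encoded by mitochondrial DNA. Skeletal muscle depends on it for sustained ATP supply, and assembly factors help to build the modules without being part of the finished enzyme.

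The 3 pairs of probes that share bases are shown first, because the results for their genes turn on which probe is read. Each line gives 30 bases of a probe, 5′ to 3′ in the direction of the transcript, and capitals mark the bases that the probe shares with its partner. The brighter probe's line shows the start of the shared stretch and the dimmer probe's line its end. The capitals within a pair therefore differ. The pairs share 30 bases (Ndufb2), 37 bases (Ndufb4) and 55 bases (Ndufb11) of 60. In mm9 (NCBI 37) the Ndufb2 probes lie at chr6:39548336-39549425 and chr6:39549396-39549455 on the plus strand, the first across a gap in the genome. The Ndufb4 probes lie at chr16:37647711-37647770 and chr16:37647688-37647747 and the Ndufb11 probes at chrX:20192453-20192512 and chrX:20192448-20192507, all on the minus strand. Exon and UTR positions were not assigned, because no gene models of that build were used here.
Ndufb2 brighter probe: ctctggacgagagcaAGGTGAGACATTTCA
Ndufb2 dimmer probe: AGAAATTACAGACTTcattaaaggtgtaaa
Ndufb4 brighter probe: aatttaacatctcctACTAAGTTCGGCAAG
Ndufb4 dimmer probe: ATTCTTGCATAAATAaatctcctattaatt
Ndufb11 brighter probe: tcatcCGCTGCTTGTTATTTACCTGGTTCC
Ndufb11 dimmer probe: ACACCTTATTAAAGGAATTGAAAGTaaaaa

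Across the 20 arrays, between 15506 and 23410 probes were marked as clear of background in Cy5, with group means of 18977 (mHFD) and 19531 (mLFD). All 8 skeletal muscle markers (Ckm and Acta1 among them) were well above background on all 20 arrays. The limma fit over all 19206 tested probes, with Benjamini-Hochberg adjustment, called 1 probe higher and 0 lower in mHFD (0.00521% and 0% of probes), while 781 were higher and 594 lower at an unadjusted p under 0.05. Of 840 values of the brightest Nduf probes, 19 were left out as non-uniform spots, and 18 of these lay on slide 2, which carried mHFD 03, mHFD 04, mLFD 03 and mLFD 04. The gene-level values and array means below leave these out, and values of 10 genes are affected.

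No Nduf gene was called in either direction, against 0.00521% of all probes called higher and 0% called lower. The smallest adjusted p among the 42 genes was 0.70 (limma). At an unadjusted p under 0.05, 0 of the 42 genes were higher, against 4.07% of all probes, and 3 were lower (7.14%), against 3.09%. The number of lower genes was 1 without mLFD 01, mHFD 03, mHFD 04, mLFD 06, mHFD 07, mHFD 08 or mHFD 09, each left out alone, and 0 without mLFD 02, mHFD 06 or mLFD 10. By sign alone, 17 Nduf genes were higher in mHFD and 25 lower (40.5% higher), against 51.9% of all probes higher. The median difference of the 42 genes was -0.011, against 0.0036 over all tested probes, and single genes ranged from -0.19 (Ndufc1) to 0.15 (Ndufa5).

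**Figure D1:**
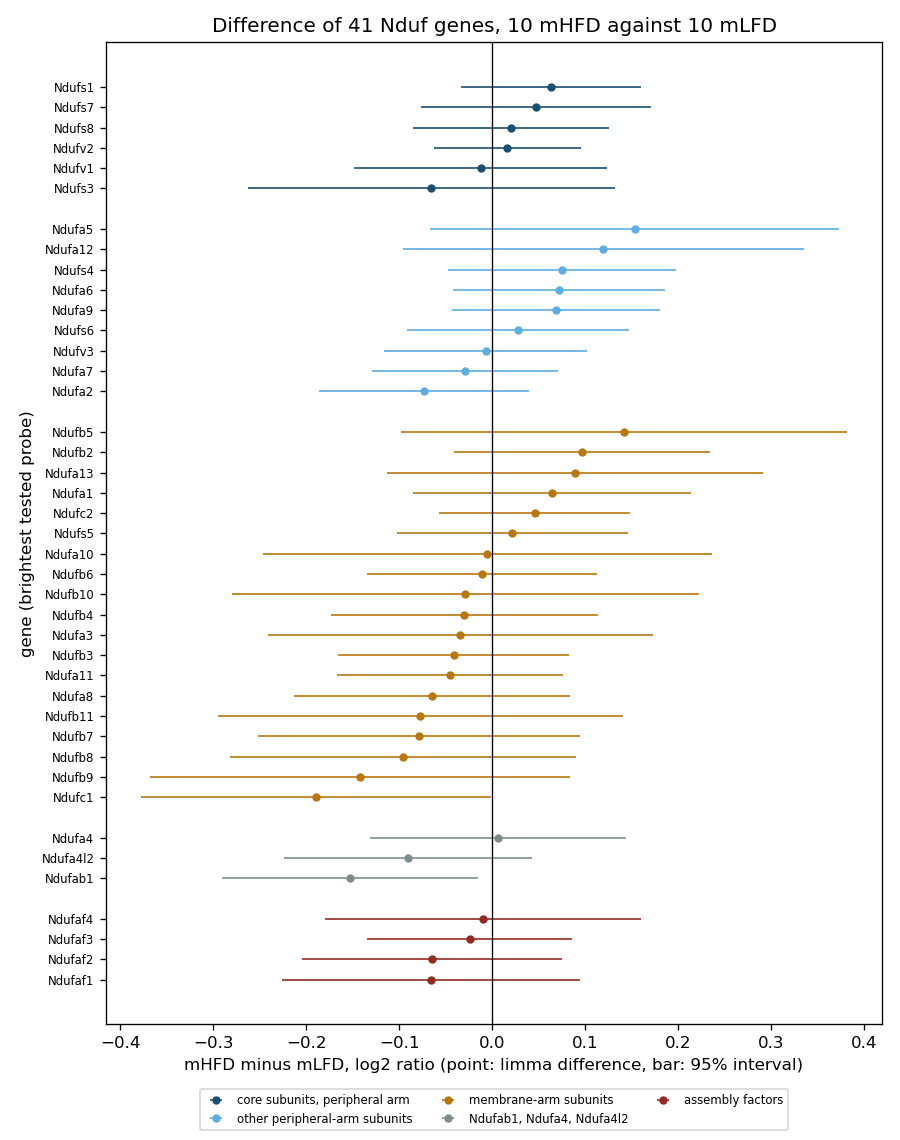
Difference between mHFD and mLFD (x axis, log2 ratio) for 41 Nduf genes (y axis), grouped by role, with points for the limma difference and bars for the 95% interval over 10 arrays per group. Nearly all intervals cross 0, those of Ndufc1 and Ndufab1 lie just below it, and all stay between -0.38 and 0.38.

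The peripheral arm holds the nuclear core subunits, which bind the cofactors and are shared with bacteria. Over the 16 peripheral-arm subunits, core and accessory, 10 had a higher mean in mHFD and 6 a lower one, with a median difference of 0.024. That is 62.5% higher, against 51.9% of all probes. Ndufv1, which binds NADH and the flavin, ran from -0.036 through a median of 0.085 to 0.40 in mHFD and from -0.057 through 0.12 to 0.35 in mLFD. Its groups overlapped almost wholly, and the difference was -0.012 ± 0.066 (SE). Ndufv2, an iron-sulphur subunit beside it, had a narrow spread, at 0.22 ± 0.042 (SD, n = 10) in mHFD and 0.20 ± 0.079 in mLFD. Its difference of 0.016 had a 95% interval from -0.062 to 0.095.

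Ndufs1, the iron-sulphur subunit that continues the electron path, lay between -0.14 and 0.12 (median 0.043) in mHFD and between -0.19 and 0.029 (median -0.021) in mLFD, with 1 array of each group left out. Of the mHFD arrays, 6 were above every mLFD array, yet the difference of 0.064 ± 0.047 (SE) had an adjusted p of 0.77 (limma). Ndufs3, a core subunit at the foot of the redox chain, had a difference in the other direction, -0.065 ± 0.096, with values from -0.53 to 0.045 in mHFD and from -0.51 to 0.18 in mLFD. Ndufs7 and Ndufs8, which carry the last clusters before ubiquinone, differed by 0.048 ± 0.060 and 0.021 ± 0.051. These groups overlapped over most of their ranges.

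The 9 accessory subunits of the peripheral arm, which stabilise the core, had a median difference of 0.069, with 6 higher and 3 lower and 0 past an unadjusted p of 0.05. Over all probes, 51.9% were higher, and 4.07% were higher and 3.09% lower at that level. Ndufa5 had the highest difference of any Nduf gene. Its mHFD arrays ran from -0.19 through 0.074 to 0.41 (mHFD 05) and its mLFD arrays from -0.68 (mLFD 06) through -0.096 to 0.35 (mLFD 01), so the ranges overlapped widely. The difference was 0.15 ± 0.11 (SE), with an adjusted p of 0.75 (limma), and a second probe gave 0.11 ± 0.069. Ndufa6, a small subunit of the LYR family, ran from -0.30 through -0.018 to 0.28 in mHFD and from -0.18 through -0.11 to 0.048 in mLFD. Its difference was 0.073 ± 0.055, in the opposite direction (-0.014) when the sample channel was read alone. Ndufs4 and Ndufa9, accessory subunits near the catalytic sites, differed by 0.075 and 0.069, each with the higher mHFD mean on 4 of 5 slides.

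The membrane arm was represented by 19 accessory subunits, with no core subunit among the Nduf genes. Here 6 were higher and 13 lower, with a median difference of -0.030, against 51.9% of all probes higher. By the brightest probe, 8 of the 10 Ndufb genes were lower, but this count depends on the probe read. Another probe was higher for Ndufb4 (0.15), Ndufb6 (0.17) and Ndufb11 (0.094), which count as lower. For Ndufb2 (-0.18) and Ndufb5 (-0.071), which count as higher, another probe was lower. Ndufc1, a small membrane-arm subunit, ran from -0.19 (mHFD 06) through 0.12 to 0.42 (mHFD 05) in 10 mHFD arrays and from 0.017 (mLFD 07) through 0.28 to 0.54 (mLFD 01) in 8 mLFD arrays, with mLFD 03 and mLFD 04 left out. Of the mHFD arrays, 4 lay below every mLFD array, and the other ranges overlapped. The difference was -0.19 ± 0.091 (SE), with an unadjusted p of 0.049 and an adjusted p of 0.70 (limma). With the non-uniform spots kept, a choice made after the data were seen, it was -0.16 with an unadjusted p of 0.078, and with the scanner's own log ratio it was -0.043.

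Ndufb9, at the end of the membrane arm, had a difference of -0.14 ± 0.11, and the mHFD mean was the lower on each of the 4 slides with values in both groups. Ndufb8, a neighbouring accessory subunit, differed by -0.096 ± 0.089. In mLFD it reached 0.92 on mLFD 07, against a highest mHFD value of 0.41. The membrane arm also held the 3 genes with the widest spread over the 20 arrays. Ndufb10 ran from -0.46 to 0.17 in 9 mHFD arrays and from -0.74 to 0.48 in 9 mLFD arrays. Ndufb5 was between -0.061 and 1.24 in mHFD (median 0.14) and between -0.23 and 0.25 in mLFD (median 0.13). Ndufa10, which faces the matrix, was between -0.35 and 0.99 in mHFD (median -0.034) and between -0.18 and 0.29 in mLFD (median 0.092).

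For Ndufb5 and Ndufa10, 1 array each made the spread. On mHFD 08 the brightest Ndufb5 probe read 1.24, and the next mHFD array read 0.33. On the same array the other tested Ndufb5 probes read 0.16 and -0.055. The Ndufb5 difference was 0.14 ± 0.12 (SE) with mHFD 08 and 0.031 without it, and 0.0060 without the whole of slide 4, which held that array. Ndufa10 read 0.99 on mHFD 06 and 0.21 on the next array, and its difference was -0.0049 with mHFD 06 and -0.11 without it.

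**Figure D2:**
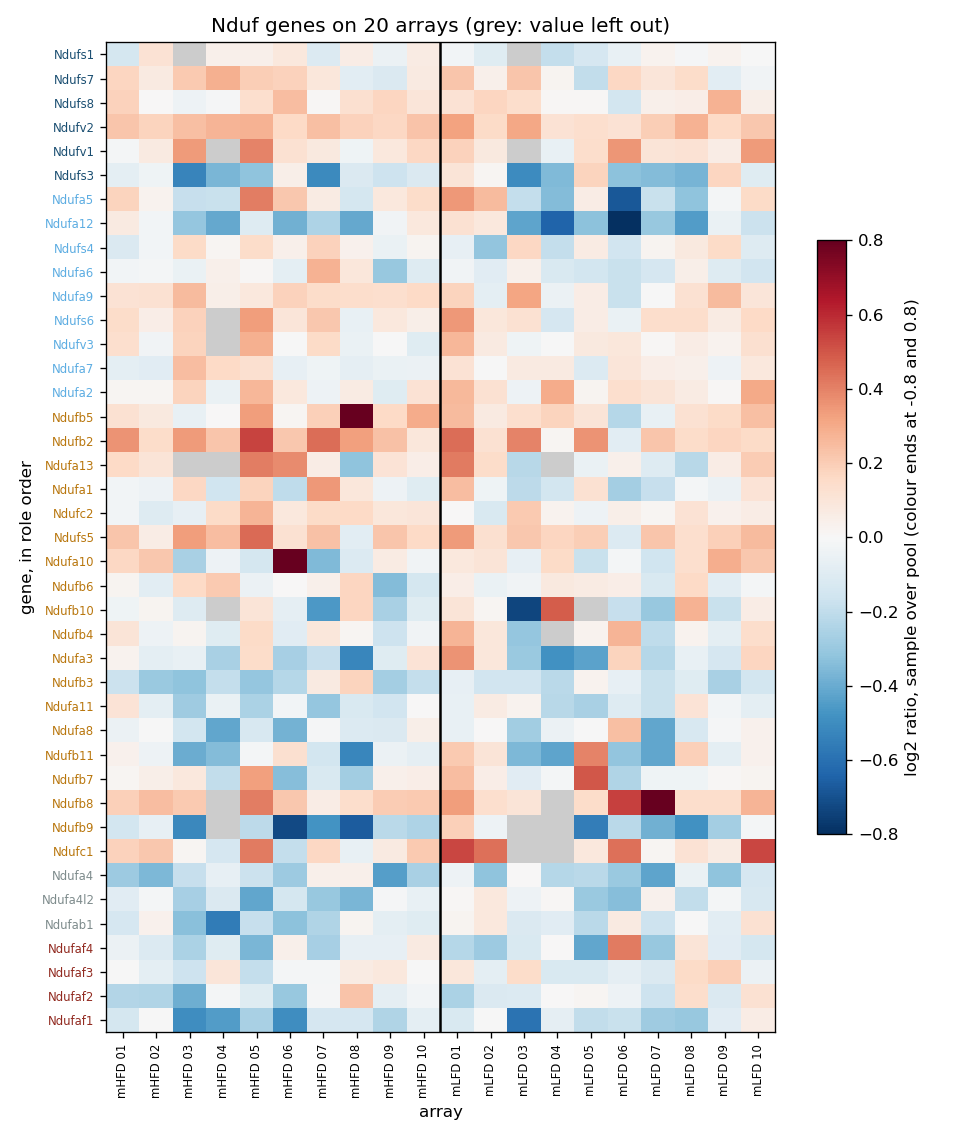
Log2 ratio of sample over pool (colour, red above and blue below 0) for 41 Nduf genes (rows, in role order) on 10 mHFD and 10 mLFD arrays (columns); grey cells are the 19 values left out. No block of rows separates the groups, mHFD 05 and mLFD 01 are red in many subunits, and the single dark cells of Ndufb5 on mHFD 08 and Ndufa10 on mHFD 06 stand out.

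A further 3 members are set apart from both arms. Ndufab1 is the mitochondrial acyl carrier protein, which also serves fatty acid and lipoic acid synthesis. It ranged from -0.56 (mHFD 04) through -0.16 to 0.036 (mHFD 02) in mHFD and from -0.21 (mLFD 05) through -0.045 to 0.12 (mLFD 10) in mLFD. The mHFD arrays were lower as a group, with 4 below every mLFD array and the rest overlapping. The difference of -0.15 ± 0.067 (SE) had the smallest p of the 42 genes, 0.032 unadjusted and 0.70 adjusted (limma), and the mHFD mean was the lower on 5 of 5 slides. The probe lies at chr7:129231667-129231726 (mm9, minus strand).

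Ndufa4, named for complex I and since assigned to cytochrome c oxidase, had nearly the same values in both groups, from -0.44 through -0.22 to 0.042 in mHFD and from -0.42 through -0.22 to 0.0020 in mLFD. Its difference was 0.0064, with a 95% interval from -0.13 to 0.14. Its paralogue Ndufa4l2, which is induced by low oxygen in many cells, ran from -0.42 through -0.13 to -0.0094 in mHFD and from -0.34 through -0.026 to 0.084 in mLFD. The groups overlapped, and the difference was -0.091 ± 0.065 (adjusted p = 0.76, limma).

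The 4 assembly factors all had a lower mean in mHFD, with a median difference of -0.044 (the sign of Ndufaf4 turned under 9 of 22 alternatives), and 0 of 4 passed even the unadjusted level. Over all probes, 51.9% were higher, and 3.09% were lower at that level. Ndufaf1, which acts on the membrane arm, ran from -0.50 through -0.19 to -0.0049 in mHFD and from -0.59 through -0.15 to 0.062 in mLFD (difference -0.065 ± 0.077, SE). Ndufaf2, a late factor of the peripheral arm, ran from -0.39 through -0.086 to 0.23 and from -0.25 through -0.075 to 0.14 (difference -0.064 ± 0.068). In both genes the groups covered nearly the same range. Ndufaf3 and Ndufaf4, which work as a pair on the ubiquinone module, differed by -0.024 ± 0.053 and -0.0095 ± 0.082. A second probe of Ndufaf4 gave 0.029. RefSeq accessions assign 4 further array genes, which carry older names in the scanner files, to Ndufaf5 (0.026), Ndufaf6 (-0.060), Ndufaf7 (-0.010) and Ndufaf8 (-0.086), and 0 of these 4 differences passed the threshold.

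Averaged on each array, the 38 subunits gave 0.00051 ± 0.045 (SD, n = 10) in mHFD and 0.0071 ± 0.076 in mLFD, and the difference of -0.0066 ± 0.028 (SE) had a 95% interval from -0.065 to 0.052. The lowest, median and highest arrays were -0.061, -0.0084 and 0.098 in mHFD and -0.069, 0.00046 and 0.17 in mLFD. The ranges overlapped, and the highest arrays were mHFD 05 and mLFD 01. Each array mean, here and below, is over the genes with a value on that array, so slide 2 arrays average fewer subunits. The lowest arrays, mHFD 04 and mLFD 04, both lay on slide 2. On mHFD 04, Ndufa13, Ndufb8, Ndufb9, Ndufb10, Ndufs6, Ndufv1 and Ndufv3 were left out. The mHFD mean was the higher on 3 of 5 slides, and the sign of the difference turned under 3 of 22 alternatives. The assembly factors gave -0.12 ± 0.10 in mHFD and -0.084 ± 0.091 in mLFD, with a difference of -0.041 and an interval from -0.13 to 0.050.

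The contrast of subunits with assembly factors, taken on each array, differed between the groups by 0.034 ± 0.053 (SE), with an interval from -0.076 to 0.14 and the higher value in mHFD on 2 of 5 slides. Peripheral minus membrane arm differed by 0.037 ± 0.027, with an interval from -0.018 to 0.093, and was the higher in mHFD on 4 of 5 slides. Both intervals include 0.

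**Figure D3:**
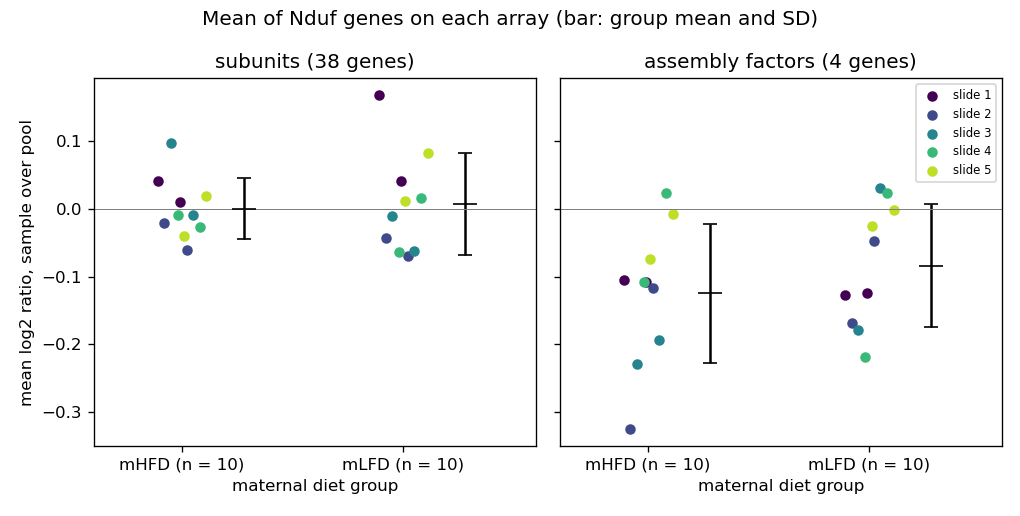
Mean log2 ratio of sample over pool (y axis) of 38 subunits (left) and 4 assembly factors (right) on each array, by maternal diet group (x axis); points are arrays coloured by slide, and bars show the group mean and SD (n = 10). The groups overlap in both panels, with subunit means of 0.00051 (mHFD) and 0.0071 (mLFD). The mean of an array leaves out genes without a value on it.

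On every slide the mHFD samples occupied positions 1 and 3 and the mLFD samples positions 2 and 4. The assembly factor mean was -0.17 at position 1, -0.14 at position 2, -0.080 at position 3 and -0.023 at position 4 (n = 5 each), while the subunit mean stayed between -0.013 and 0.014. With position as a covariate, the assembly factor difference was 0.011 in place of -0.041, and subunits minus assembly factors was -0.027 in place of 0.034. An effect of odd against even positions and the maternal diet cannot be told apart.

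**Figure D4:**
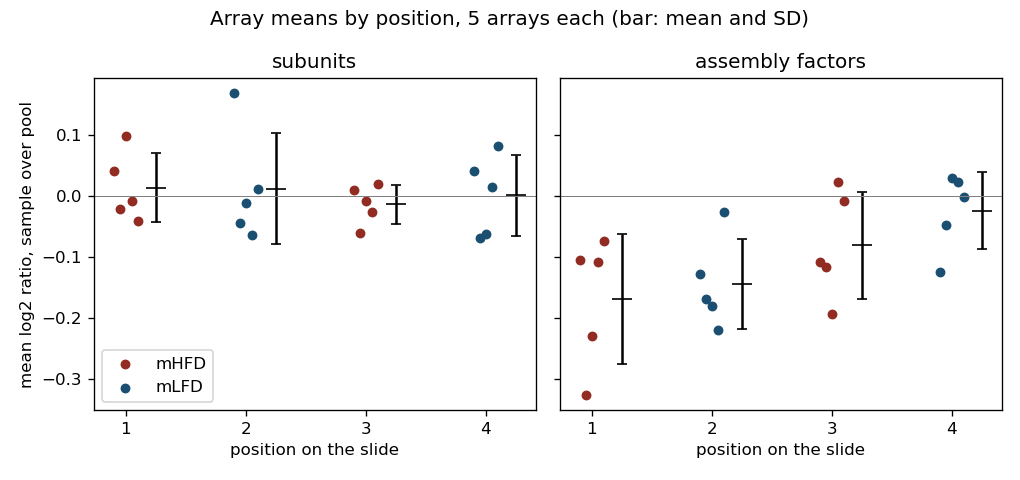
Mean log2 ratio (y axis) of subunits (left) and assembly factors (right) by array position on the slide (x axis, 5 arrays each); red points are mHFD, blue points mLFD, and bars show the mean and SD. The assembly factor means run from -0.17 at position 1 to -0.023 at position 4, and the subunit means stay near 0.

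Of the 10 Nduf genes with more than 1 tested probe, 6 had probes whose differences pointed in opposite directions, including all 3 pairs that share bases. For Ndufb2, a membrane-arm subunit, the brighter probe (0.092 through 0.28 to 0.54 in mHFD, -0.084 through 0.16 to 0.45 in mLFD) gave 0.097 ± 0.067 (SE) and the dimmer -0.18 ± 0.086, with unadjusted p of 0.16 and 0.051. Over the arrays, within groups, these probes did not track each other (r = 0.0055, n = 20), although 30 of their 60 bases are the same. For Ndufb4, the brighter probe gave -0.030 ± 0.069 and the dimmer 0.15 ± 0.066, with an unadjusted p of 0.028 and an adjusted p of 0.70 for the dimmer (limma), and r was 0.098 (n = 19).

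The Ndufb11 probes, offset by 5 bases, did track each other (r = 0.84, n = 20), with differences of -0.077 ± 0.11 and 0.094 ± 0.13 and intervals that overlap. The third Ndufb11 probe gave -0.059. Ndufb6 probes gave -0.011 and 0.17 ± 0.14, the dimmer with a 95% interval from -0.11 to 0.46, and the tested Ndufb5 probes gave 0.14, 0.0026 and -0.071. Over all 16 probe pairs of one gene, r ran from -0.35 to 0.84 with a median of 0.044. In 6 of these 10 genes the sign of the difference therefore depends on the probe read.

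**Figure D5:**
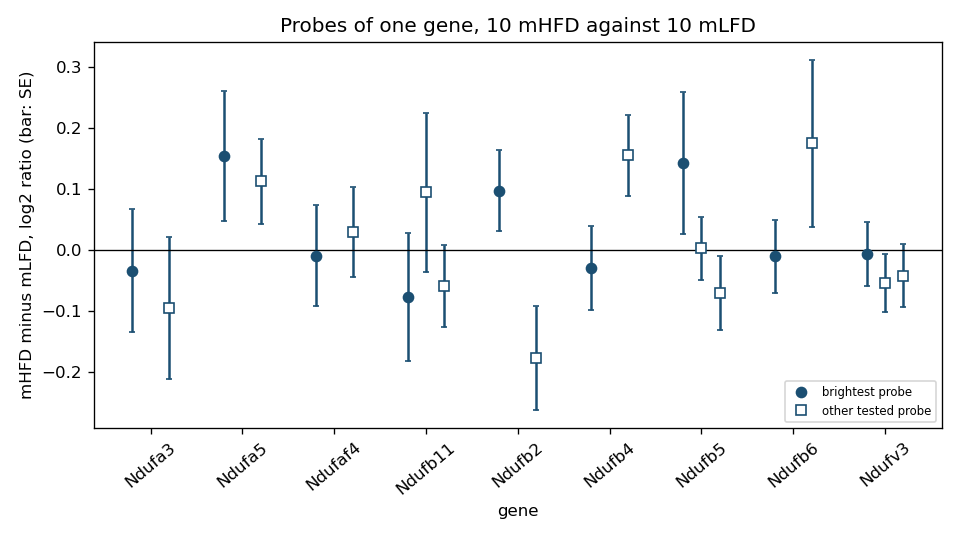
Difference between mHFD and mLFD (y axis, log2 ratio, bars show the SE) for every tested probe of 9 Nduf genes with more than 1 (x axis); filled circles are the brightest probe and open squares the others. In Ndufb2 and Ndufb4 the probes lie on opposite sides of 0, and in Ndufa5 on the same side.

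As a description of the 20 arrays, which share 1 pool and 1 normalization, 30 of the 38 subunits correlated above 0 with the mean of the other Nduf genes once group means were removed. Ndufa5 had the highest correlation (r = 0.69), followed by Ndufc1 (0.64) and Ndufa3 (0.64), while Ndufb8 (-0.28) and Ndufs4 (-0.17) ran the other way. The median over the 703 pairs of subunits was 0.092, and 59.6% of the pairs were above 0. Over all tested probes, the median r with the subunit mean was -0.0027. Peripheral and membrane arm means correlated at r = 0.66 (rho = 0.55), and at 0.56 without mLFD 01 and mLFD 06. Subunit and assembly factor means gave r = -0.046 (rho = 0.029), and 0.21 without mLFD 01 and mHFD 05. The subunit mean also went with the number of probes well above background on an array (r = 0.40, rho = 0.47), and more closely without mLFD 01 and mHFD 05 (r = 0.63). The part of that number in these correlations was not tested.

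The other genes of complex I comprise the subunits encoded by mitochondrial DNA and assembly factors with other names. Of 20 tested, 11 were higher and 9 lower, against 51.9% of all probes higher, and 0 were called or passed the unadjusted level. The mitochondrial subunits of the membrane arm differed by -0.13 ± 0.13 (ND1), -0.0062 ± 0.12 (ND2), -0.031 ± 0.082 (ND4), 0.056 ± 0.14 (ND4L), 0.16 ± 0.10 (ND5) and 0.024 ± 0.068 (ND6). With values on slide 2 left out, ND2 had 8 mHFD and 9 mLFD arrays, ND4 had 8 and 10, and ND4L had 8 and 8. The probe named ND3 in the scanner files is placed there on a nuclear chromosome, at chr1:24619613-24619672 (mm9, minus strand), and gave 0.099 ± 0.085. The smallest p belonged to Dmac1 (-0.18, unadjusted p = 0.084) and Dmac2 (0.092, p = 0.10), both named for assembly of the distal membrane arm, and to ND5 (p = 0.14). The mean of all 20 tested other genes of complex I, the ND3 probe included, correlated over the arrays with the subunit mean at r = 0.73 (rho = 0.65, n = 20). Without mLFD 01 and mHFD 05 it was 0.46. On the slide 2 arrays this mean is over fewer genes.

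In a list of 10 genes of mitochondrial content and its regulation, 6 were higher and 4 lower, against 51.9% of all probes higher, and 0 were called. Ppargc1a, the coactivator of mitochondrial biogenesis, ran from -0.48 through 0.076 to 1.003 in mHFD and from -0.43 through -0.26 to 0.18 in mLFD (0.36 ± 0.12, unadjusted p = 0.0088, adjusted p = 0.70, limma). Esrra, a nuclear receptor that works with it, gave 0.17 ± 0.079 (unadjusted p = 0.042), and Cs, citrate synthase, 0.098 ± 0.13. Their list mean and the subunit mean correlated at r = 0.42 (rho = 0.51, n = 20).

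Several lists of markers of other cells in the muscle, and the list of slow-fibre genes, had lower means in mHFD, with 0 genes called. The mean of 8 tendon and matrix markers lay between -0.42 and 0.072 in mHFD and between -0.28 and 0.24 in mLFD, with 7 of 8 genes lower in mHFD, 4 of them at an unadjusted p under 0.05. Over all probes, 3.09% were lower at that level. The list mean differed by -0.17, with a 95% interval from -0.31 to -0.029, and was lower in mHFD on 5 of 5 slides. The lists were chosen with earlier results of these data known, so intervals of list means are descriptions and not tests. Adipocyte markers, of which 7 of 7 were lower in mHFD, lay between -0.997 and 0.29 and between -1.001 and 0.89, and 7 of 8 slow-fibre genes were lower, between -0.66 and 0.31 and between -0.71 and 0.59. Beside these counts, 51.9% of all tested probes were higher in mHFD. The adipocyte mean differed by -0.36, with a 95% interval from -0.88 to 0.16. The slow-fibre mean differed by -0.21, with an interval from -0.52 to 0.11. Both intervals include 0, and each mean was higher in mHFD on 1 of 5 slides. All of these tested markers were well above background on all 20 arrays, and the adipocyte gene Lep was not tested. The list means of endothelial (-0.047), macrophage (-0.021), erythroid (-0.019), Schwann cell (-0.0077) and skeletal muscle markers (-0.023) differed less. Each of their 95% intervals includes 0. Over the 20 arrays, within groups, the subunit mean correlated with the tendon and matrix mean at r = -0.39 (rho = -0.38), and at -0.37 without mLFD 01 and mHFD 05. For adipocyte markers r was 0.23 (0.014 without those arrays), for slow-fibre genes 0.14 (0.12), for skeletal muscle markers 0.39 (0.25), for macrophage markers -0.24 (0.090), for endothelial markers -0.39 (-0.38), for erythroid markers -0.47 (-0.28) and for Schwann cell markers 0.31 (0.28). The skeletal muscle mean is over fewer genes on slide 2, where Ckm, Acta1 and Mb had no value on any array. On mHFD 03, where Myh4, Tnnt3 and Pvalb were also left out, it was -0.18, against an mHFD median of 0.29. The part of these gaps in its correlation was not tested. The part of these cells in the Nduf values was otherwise not tested, and in whole muscle fewer cells of a type and less RNA per cell cannot be told apart.

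In the promoters of RefSeq (GRCm38.p6, 250 bases before to 50 after each start), 37 of the 42 Nduf genes had a window. Searched on both strands, the YY1 motif AAGATGGCG was in the windows of 5 Nduf genes (13.5%, against 1.64% of 27025 genes), the NRF1 core CGCATGCG in 3 (8.11% against 2.07%), the ERR site CAAGGTCA in 1 (2.70% against 1.76%) and the ETS motif CCGGAAGT in 1 (2.70% against 4.31%). The 5 YY1 matches are shown because they are the most frequent match here, in 30 bases of the gene's strand with the motif in capitals. All 5 lay after the start, by 23 to 36 bases, and all read in the direction of the gene. They are at chr6:126849096-126849125 (minus), chr3:51408914-51408943 (minus), chr13:114388045-114388074 (minus), chr13:73328433-73328462 (minus) and chr10:80249463-80249492 (plus), in the order listed. Of these genes, Ndufc1 had a negative difference (-0.19) and the other 4 had positive ones (0.028 to 0.075), so the genes with this motif did not share a direction.
Ndufa9: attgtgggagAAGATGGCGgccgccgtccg
Ndufc1: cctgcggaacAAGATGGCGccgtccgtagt
Ndufs4: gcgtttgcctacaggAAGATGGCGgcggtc
Ndufs6: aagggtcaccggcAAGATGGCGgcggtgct
Ndufs7: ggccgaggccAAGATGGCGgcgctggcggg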

How the data were processed

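Spots had been read with Agilent Feature Extraction 10.7.3.1, per the submitters' processing notes, into deposited files with spot intensity for each dye, quality flags and the log10 of Cy5/Cy3, already corrected for background and dye by the authors' software. A table deposited beside them gives the authors' own log2 values (19377 spots), with a median of 7.54 in every column; it matched log2 Cy5 corrected by Cy3 (r of 0.994 or more), but its background correction, centring and stated direction are not given in the sources used here, and it served as an alternative. Here, intensities were corrected with normexp (offset 50) and loess-normalized within arrays in limma 3.58.1 (R 4.3.3). The 1377 control spots and non-uniform spots were left out, and probes well above background in Cy5 on 10 of 20 arrays were kept (19206 of 39429). A gene is its brightest tested probe. Groups were compared by lmFit and eBayes, two-sided, with Benjamini-Hochberg adjustment over all tested probes and a threshold of 0.05, after the fit had been tested on simulated data. Array number limits the precision. Means over genes have no p. Genes named are the 4 of smallest p in each direction, the core subunits, the assembly factors, Ndufa4 and Ndufa4l2, the 3 widest in SD and those whose probes disagree; Ndufb8, Ndufb9, Ndufs4, Ndufa9 and Ndufa3 were added after their values were seen. One member enters the counts but is not reported here by name or value. Members and lists were chosen with earlier results of these data known. Promoter matches are letters only. Other backgrounds, normalizations, filters, blocks and left-out arrays were tried.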

Additional observations from a re-analysis of the deposited data

Results flagged for a closer look

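Among 56 combinations of a named gene or array mean with a group, 2 had an array far from the others by Dixon's ratio (gap to the nearest array over the range of its group); about 1 in 20 would be so by chance, which makes 2.8. The brightest Ndufb5 probe on mHFD 08 (1.24, the next array 0.33) had a ratio of 0.698. Ndufa10 on mHFD 06 (0.99, the next array 0.21) had a ratio of 0.578.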

How the results depend on the processing

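No Nduf gene passed the threshold under any of the 42 alternatives run, 20 of which left out 1 array. The number of lower genes at an unadjusted p under 0.05, 3 as reported, was 1 with no background correction, with the sample channel alone, in the authors' table, without slide 2 or without slide 5, and 0 with median centring, with scaling between arrays or with position as a covariate; it ran from 0 to 3 when 1 array was left out. The number of higher genes, 0 as reported, was 1 with the replicate block, with genes that had values on all 20 arrays or without slide 1, and 0 to 1 with 1 array left out. Ndufb2 (0.097) turned to -0.025 with the sample channel alone, -0.011 with position and -0.040 with the mean over its probes, and Ndufa6 (0.073) to -0.014 with the sample channel alone. The cause was not tested. Among genes with smaller differences, the sign turned under 9 of 22 settings other than leaving out 1 array for Ndufaf4, 7 for Ndufb6, 6 each for Ndufv1, Ndufv2, Ndufs8, Ndufa10 and Ndufb10, 5 for Ndufb4, 3 for Ndufa4, 2 for Ndufs3 and 1 each for Ndufaf1 and Ndufaf2 (21 settings for Ndufv1, Ndufb10 and Ndufa4). Ndufc1 ran from -0.25 to -0.043 (the scanner's own log ratio), and Ndufb5 from 0.0060 (without slide 4) to 0.22. The subunit mean difference (-0.0066) ran from -0.052 in the authors' table to 0.011 without slide 1 and turned sign under 3 of 22 settings; all Nduf genes (-0.010) ran from -0.053 to 0.0049 and turned under 2, the median (-0.011) from -0.050 to 0.0095 and turned under 4, the assembly factors (-0.041) from -0.068 to 0.011 and turned under 1, and subunits minus assembly factors (0.034) from -0.027 to 0.067 and turned under 2. These moves were below 1 SD of the array means, but some exceed the reported value and its SE. With the replicate number as a block, 2 genes were lower and 1 higher at the unadjusted level. Same-numbered arrays correlated at -0.0063 to 0.34, with 8 of 10 pairs over 0.1, and 7 of 20 arrays correlated best with their own number, a hint of pairing from the data; same-numbered arrays also lay on the same slide. As the labels do not pair them and 2 pairs were at or below 0.1, the fit without the block was kept. Ndufc1, Ndufb9 and other bright genes have fewer values on slide 2.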
